A study of Mus musculus with 24 samples.

Results

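The caseins and whey acidic protein are the major proteins of mouse milk, and 6 genes that encode them were followed across 8 sorted mammary cell populations: Csn1s1 (alpha-S1-casein), Csn1s2a and Csn1s2b (caseins of the alpha-S2 type), Csn2 (beta-casein), Csn3 (kappa-casein) and Wap (whey acidic protein). The genes were taken by name and are 6 of the 19937 genes that an Affymetrix mouse Gene 1.0 ST array read with a probe set of a single gene symbol. Each of the 6 had exactly 1 such probe set. The values are log2 expression values as the authors deposited them, so a difference of 1 is a doubling of signal.

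All mice carried Lgr5-creERT2, a Cre recombinase that tamoxifen activates in cells expressing Lgr5, on a mixed FVB/C57BL6 background, and all glands were taken 4 weeks after tamoxifen. Control mice carried Lgr5-creERT2 alone. The mutant mice, Lgr5-creERT2/PIK3CA H1047R, also carried a transgene for an activated catalytic subunit of phosphoinositide 3-kinase, which the tamoxifen switched on. The tissue is labelled preneoplastic mammary gland in both genotypes, and the age of the mice is not given in the sources used here. Cells lacking CD45 were gated as basal (CD24 low and Sca1-negative) or luminal (CD24 high, with or without Sca1), and GFP was read as marking Lgr5 expression, H1047R expression or both. From control mice came a basal group with GFP, a basal group without it, and luminal groups with and without Sca1, both lacking GFP. From mutant mice came the same 4 gates except that both luminal groups had GFP, so genotype and GFP state cannot be told apart in the luminal comparisons. Control cells carried no H1047R, so their GFP could mark Lgr5 only, while GFP of mutant cells could mark either. Mutant and control basal groups of the same GFP state are therefore not strictly like for like. Each group had 3 arrays, numbered as replicates 1 to 3, each from 1 of 3 independent sortings of glands pooled from 2 to 3 estrus-synchronised mice. RNA of 250 cells per array was amplified before hybridisation.

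Caseins are phosphoproteins that carry calcium phosphate into milk as micelles. The calcium-sensitive caseins (alpha-S1, alpha-S2 and beta) form the body of the micelle, kappa-casein coats and stabilises it, and whey acidic protein stays soluble in the whey of rodent milk. In the gland these genes belong to the secretory programme of luminal alveolar cells, which prolactin drives through the receptor kinase Jak2 and the transcription factor Stat5 together with glucocorticoid, and which the factor Elf5 supports. Basal cells form the contractile myoepithelium and are not milk-secreting cells. Low casein expression is known in luminal progenitor cells of glands that are not lactating.

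The 5 casein genes lie in 1 cluster on chromosome 5, in the order Csn1s1, Csn2, Csn1s2a, Csn1s2b and Csn3, over 266 kb of the mouse reference GRCm38.p6. Wap lies apart from them on chromosome 11. Csn1s1 and Csn2 had the highest Pearson correlation of any pair of members (0.95). By Spearman correlation Csn1s2a and Csn2 had it, 0.94 against 0.90. Wap is the member outside the cluster. The bases upstream of Csn1s1, Csn2 and Wap are shown for these reasons. Each is the 250 bases before the start in the promoter table, 5′ to 3′ on the gene's strand, from RefSeq (GRCm38.p6): chr5:87665958-87666207 on the plus strand for Csn1s1, chr5:87699426-87699675 on the minus strand for Csn2 and chr11:6638650-6638899 on the minus strand for Wap. Capitals mark TTCNNNGAA, the palindrome that STAT factors are known to bind, which was searched on both strands.
Csn1s1: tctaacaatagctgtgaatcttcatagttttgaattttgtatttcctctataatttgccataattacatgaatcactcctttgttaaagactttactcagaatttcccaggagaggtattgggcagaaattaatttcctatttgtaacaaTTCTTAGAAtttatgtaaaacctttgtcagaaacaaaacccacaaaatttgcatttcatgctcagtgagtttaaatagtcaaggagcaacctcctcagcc
Csn2: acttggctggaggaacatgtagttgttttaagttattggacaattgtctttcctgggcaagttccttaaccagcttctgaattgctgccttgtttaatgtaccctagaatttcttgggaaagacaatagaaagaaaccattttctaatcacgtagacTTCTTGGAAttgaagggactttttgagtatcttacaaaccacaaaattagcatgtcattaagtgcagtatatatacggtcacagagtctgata
Wap: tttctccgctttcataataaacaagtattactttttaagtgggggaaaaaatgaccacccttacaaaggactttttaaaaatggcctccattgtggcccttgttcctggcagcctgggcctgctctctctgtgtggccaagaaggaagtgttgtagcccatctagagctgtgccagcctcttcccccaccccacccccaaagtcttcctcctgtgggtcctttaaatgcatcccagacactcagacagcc
Csn1s1 and Csn2 each held 1 such match, TTCTTAGAA at bases 100 to 92 before the start in Csn1s1 and TTCTTGGAA at bases 93 to 85 in Csn2. The windows of Wap and Csn1s2a held 0 matches, and 7.02% of the 32851 mouse promoters in the table hold at least 1. RefSeq windows for 4 of the 6 members were used. The letters TTNNGNAA, a C/EBP-like pattern that 36.8% of promoters hold, occurred in all 4 windows, and GGAA, an ETS core, also occurred in all 4 but is present in 93.4% of promoters. One GGAA of Csn2 overlaps its TTCNNNGAA match, and others there and in Csn1s2a overlap TTNNGNAA. TTGGC, a core of NF1 sites, in 41.5% of promoters, occurred in Csn2 and Wap, and TGTTCT, a core of steroid receptor sites held by 16.1%, in Csn1s2a. All 5 patterns were searched on both strands. A match of letters describes the sequence and does not show that a factor binds.

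Sorted identity was checked before the members were read. The mean of 8 basal markers, Krt5 and Krt14 among them, was 10.5 to 11.1 on the arrays of basal groups, 5.27 to 5.72 in control luminal groups and 5.18 to 7.04 in mutant luminal groups, and the mean of 8 luminal markers was 7.64 to 9.05 in basal and 11.1 to 11.6 in luminal groups. Of 10 leukocyte markers, 6 to 8 were at background in each group, and the list's mean per array was 3.94 to 4.18. In the basal GFP-positive comparison of genotypes Col1a2 rose among 6 fibroblast markers and Cidec and Retn fell among 5 adipocyte markers, by 0.46, -0.47 and -0.29. Cidec and Retn were at background in the mutant cells. Over all genes 4.74% rose and 7.81% fell in that comparison. Pik3ca, the mouse gene of the switched-on kinase, stood at 7.62 to 8.42 on the GFP-positive mutant arrays and 6.78 to 7.93 on the control arrays, and whether its probe set also reads the transgene is not given in the sources used here. The mean array weight from limma was lowest for control basal GFP-positive cells, 0.59 against 0.81 to 1.45 in the other groups (their 3 weights were 0.699, 0.418 and 0.652, and control basal GFP-negative replicate 1 had 0.599), and pairs of them had r of 0.934 to 0.941 across genes against 0.954 to 0.979 within other groups. Background was taken as 4.28, the 95th percentile of the group means of 1190 smell and vomeronasal receptor genes, and the size of a difference from a group at background is not exact.

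Csn1s1, Csn1s2a, Csn2, Csn3 and Wap had group means far above background in all 3 GFP-positive mutant groups, basal cells included, and the first 4 of them also in control luminal Sca1-negative cells. Csn1s1, Csn2 and Csn3 were higher in mutant than in control basal GFP-positive cells by log2 differences of 5.60 to 5.90, which is 48.6 to 59.5 times the control signal. Csn1s1 was at background in those control cells, so its difference is not exact. Csn3 varied between those control arrays (5.35 ± 1.57, SD, n = 3). Against control basal GFP-negative cells Csn3 was higher by 2.24. Csn2 was the 1 member called higher in each of the 3 GFP-positive mutant groups than in its control group. The luminal control groups lacked GFP. Wap, with a mean of 4.41 to 5.33 in the control groups, rose by 5.90 in luminal Sca1-negative cells. Csn1s2b was at background on all 24 arrays. The arrays read pools of cells, so more expressing cells and more RNA per cell cannot be told apart in any of these results.

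**Figure D1:**
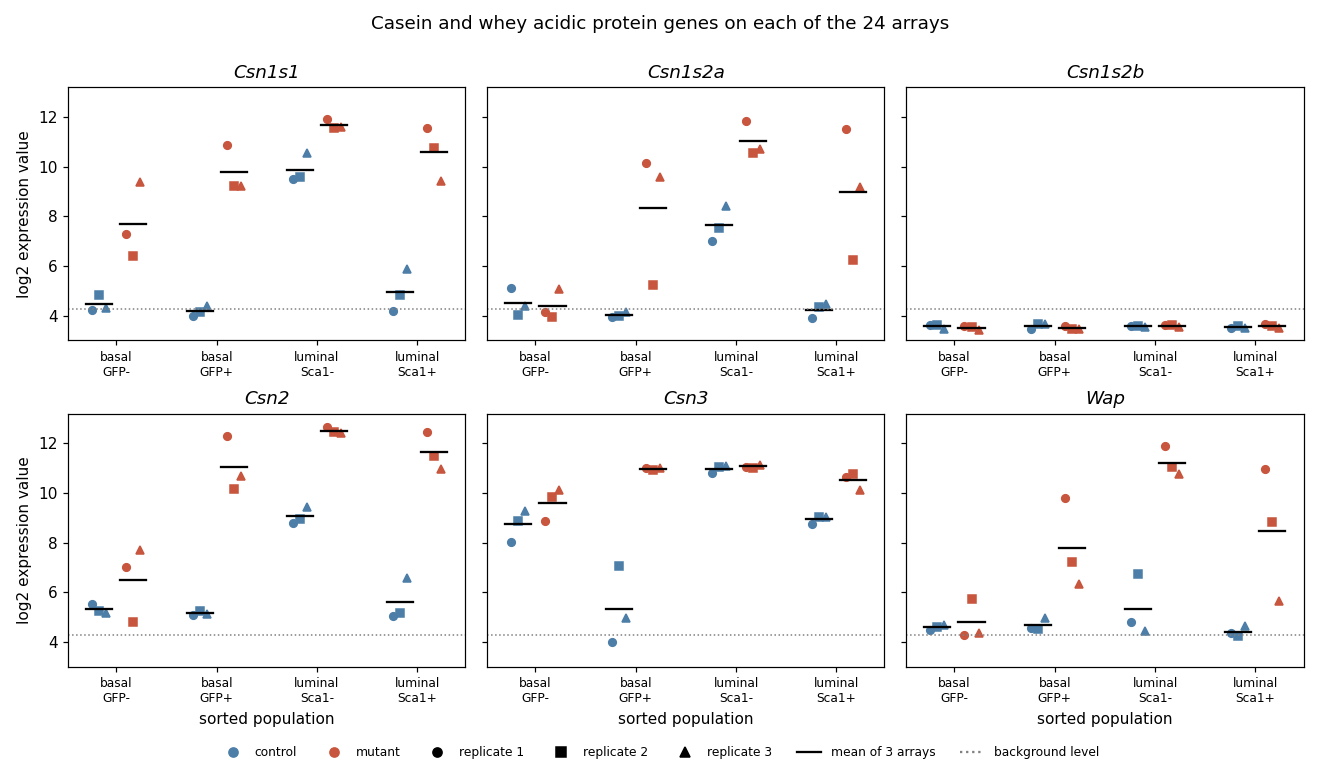
Log2 expression value (vertical axis) of each gene on each array, by sorted population (horizontal axis); blue is control, red is mutant, marker shapes are replicates, black bars are means of 3 arrays and the dotted line is the background level of 4.28. Csn1s2b lies under the line throughout, and in the 3 populations other than basal GFP-negative every mutant array of Csn1s1, Csn2, Csn1s2a and Wap lies above the control arrays of its population, down to 5.22 for Csn1s2a in basal GFP-positive cells.

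Csn2 encodes beta-casein, a main component of the micelle. On the control basal arrays it stood at 5.53, 5.24 and 5.18 in GFP-negative and 5.10, 5.26 and 5.11 in GFP-positive cells (replicates 1, 2 and 3, the order used throughout). The 6 arrays lay within a narrow band. Control luminal Sca1-negative cells gave 8.80, 8.96 and 9.46, and control Sca1-positive cells 5.04, 5.17 and 6.58. Mutant basal cells gave 7.02, 4.81 and 7.71 without GFP and 12.28, 10.17 and 10.70 with it. The GFP-positive arrays all lay above every control array of any population, and the GFP-negative arrays straddled the control basal band. Mutant luminal cells gave 12.65, 12.46 and 12.40 (Sca1-negative) and 12.48, 11.51 and 10.96 (Sca1-positive). In the order of the 8 means the 3 highest were mutant luminal Sca1-negative, mutant Sca1-positive and mutant basal GFP-positive cells, and neighbours among these 3 did not differ past the test. Mutant basal GFP-positive cells exceeded control luminal Sca1-negative cells by 1.98 (SE 0.62, adjusted p = 0.0483), a pair in which 10.1% of genes passed. Control luminal Sca1-negative cells exceeded mutant basal GFP-negative cells by 2.56 (SE 0.62, adjusted p = 0.011), also a pair with 10.1% of genes called. The 4 lowest groups did not differ between neighbours.

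Csn1s1 encodes alpha-S1-casein, a calcium-sensitive casein that also serves casein export from the cell. It stood at 4.22, 4.84 and 4.29 in control basal GFP-negative cells and 3.98, 4.14 and 4.39 in control basal GFP-positive cells, at or near background. Control luminal Sca1-negative cells stood at 9.49, 9.59 and 10.55, and Sca1-positive cells at 4.18, 4.83 and 5.89. Mutant basal GFP-negative cells stood at 7.27, 6.39 and 9.38. These 3 arrays were far apart from each other, yet each lay above every control basal array. Mutant basal GFP-positive cells stood at 10.87, 9.21 and 9.23, a range that overlaps control luminal Sca1-negative cells. The mutant luminal arrays were at 11.91, 11.57 and 11.60 without Sca1 and 11.55, 10.76 and 9.44 with it. Of the 7 steps between neighbours in the order of means, 1 passed: mutant basal GFP-negative cells over control luminal Sca1-positive cells, by 2.72 (SE 0.66, adjusted p = 0.00849, in a pair where 12.5% of genes were called).

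Csn1s2a encodes a calcium-sensitive casein of the alpha-S2 type and varied widely between replicates, with an SD of up to 2.69. It stood between 3.90 and 5.13 on the 9 control arrays outside luminal Sca1-negative cells, and at 7.01, 7.53 and 8.43 in those. Mutant basal GFP-negative cells stood at 4.13, 3.94 and 5.08, inside the control range. Mutant basal GFP-positive cells stood at 10.13, 5.22 and 9.60, and mutant luminal Sca1-positive cells at 11.52, 6.25 and 9.16. Replicate 2 was by far the lowest array of both groups. Mutant luminal Sca1-negative cells stood at 11.83, 10.55 and 10.73. No step between neighbouring means passed the test.

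Csn1s2b encodes the other casein of that type. Its 24 values ran from 3.43 to 3.66, all at background. Its range of 0.23 was at the 0.893 percentile of all genes, while the ranges of the other 5 members (7.15 to 7.93) were above the 99.8 percentile. No difference was detectable for it, and 0 of its 28 pairs of groups passed.

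Csn3 encodes kappa-casein, which coats the micelle, and was read above background in control basal GFP-negative cells, at 8.04, 8.89 and 9.27. Control basal GFP-positive cells were the low exception, at 3.99, 7.07 and 4.98. Control luminal cells stood at 10.81, 11.03 and 11.07 (Sca1-negative) and 8.77, 9.02 and 9.03 (Sca1-positive). Mutant basal cells stood at 8.88, 9.82 and 10.14 without GFP and at 10.99, 10.93 and 11.01 with it. Mutant luminal cells stood at 11.07, 11.00 and 11.14 and, with Sca1, at 10.64, 10.78 and 10.13. The means of mutant luminal Sca1-negative, mutant basal GFP-positive and control luminal Sca1-negative cells (11.07, 10.98 and 10.97) were the 3 highest and did not differ past the test. Of the 7 steps in the order only the last passed, where control basal GFP-negative cells stood 3.39 above the GFP-positive ones (SE 0.51, adjusted p = 0.00713).

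Wap encodes whey acidic protein, the whey member. On 10 of the 12 control arrays it stood between 4.23 and 4.80, and the other two stood at 4.95 (basal GFP-positive replicate 3) and 6.72 (luminal Sca1-negative replicate 2). Mutant basal GFP-negative cells gave 4.28, 5.73 and 4.38. Mutant basal GFP-positive cells gave 9.79, 7.22 and 6.32, mutant luminal Sca1-negative cells 11.88, 11.03 and 10.75, and mutant luminal Sca1-positive cells 10.96, 8.83 and 5.64. The lowest Sca1-positive array lay above its controls (4.36, 4.23 and 4.65) by far less than the highest. Unlike the 4 caseins that varied, Wap was not high in control luminal Sca1-negative cells as a group (5.33 ± 1.22, SD, n = 3). No step between neighbouring means passed.

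Mutant and control arrays were compared within each sorted gate. In basal GFP-positive cells, of the 6 members 5 rose and 0 fell, where 4.74% of all genes rose, and the same 5 had all 3 mutant arrays above all 3 control arrays, where 10.1% of genes did. The median difference of the 6 was 4.94, against -0.10 over all genes. Csn2 stood at 11.05 ± 1.10 (SD, n = 3) against 5.16 ± 0.09, a difference of 5.90 (SE 0.62, adjusted p = 1.12e-05). Csn3 rose by 5.63 (SE 0.51, adjusted p = 1.69e-06) and Csn1s1 by 5.60 (SE 0.66, adjusted p = 4.34e-05). Csn1s2a rose by 4.28 (SE 1.10, adjusted p = 0.0202) and Wap by 3.10 (SE 0.99, adjusted p = 0.0481). Csn1s2b differed by -0.09 (SE 0.07, adjusted p = 0.339). In a fit of the compared groups alone Csn1s2a (adjusted p = 0.171) and Wap (0.161) did not pass, and Csn1s2a also failed without control replicate 1 (0.0518) or 3 (0.0541) or mutant replicate 1 (0.0924) or 3 (0.075). Wap failed without control replicate 1 (0.104), 2 (0.0705) or 3 (0.0986) or mutant replicate 1 (2.09, 0.198) or 2 (0.0823), and with quantile normalization (0.0768), array weights (0.0793) or all probe sets (0.0641).

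Against control basal GFP-negative cells, whose mean array weight was higher, 3 of 6 members rose where 2.29% of genes did, and 5 of 6 had all 3 mutant arrays above all 3 control arrays, as had 8.9% of genes. Csn2 was higher by 5.73 (SE 0.62) and Csn1s1 by 5.32 (SE 0.66). Csn3 was higher by 2.24 (SE 0.51, adjusted p = 0.0189), less than the 5.63 found against GFP-positive control cells, and that call ended without control replicate 1 (1.90, adjusted p = 0.0739) or without mutant replicate 1 (0.0636), 2 (0.0589) or 3 (0.0567). Csn1s2a (3.80, adjusted p = 0.0718) and Wap (3.19, adjusted p = 0.0981) did not pass. Csn1s2a passed without mutant replicate 2 (5.35, adjusted p = 0.00388).

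In basal GFP-negative cells 0 of 6 members passed in limma, where 12 genes, 0.0602% of all, did, and 1 member, Csn1s1, had an unadjusted p under 0.05. Csn1s1 gave the largest difference, 3.23 (SE 0.66, adjusted p = 0.112), with 7.68 ± 1.54 against 4.45 ± 0.34 and all 3 mutant arrays above all 3 control arrays, as had 3.69% of genes. It passed without mutant replicate 2 (3.88, adjusted p = 0.0489). Csn2 differed by 1.19 and Csn3 by 0.88, both with overlapping arrays.

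In luminal Sca1-negative cells, whose control counterpart already carried caseins, 2 of 6 members rose where 0.557% of genes did. Wap stood at 11.22 ± 0.59 against 5.33 ± 1.22, a rise of 5.90 (SE 0.99, adjusted p = 0.0051), and did not pass in a fit of the compared groups alone (adjusted p = 0.0564). Csn2 rose by 3.44 (SE 0.62, adjusted p = 0.00816). Csn1s2a (3.38, SE 1.10, adjusted p = 0.226) and Csn1s1 (1.82, SE 0.66, adjusted p = 0.287) did not pass, though 4 of 6 members had all 3 mutant arrays above all 3 control arrays, as had 7.64% of genes. Csn3 stood at 11.07 against 10.97, a difference of 0.10 (SE 0.51).

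In luminal Sca1-positive cells 2 of 6 members rose where 0.401% of genes did. Csn2 rose by 6.05 (SE 0.62, adjusted p = 1.55e-05), from 5.60 ± 0.85 to 11.65 ± 0.77, and Csn1s1 by 5.62 (SE 0.66, adjusted p = 7.55e-05), from 4.96 ± 0.86 to 10.58 ± 1.07. Csn1s2a (4.74, SE 1.10, adjusted p = 0.0531), Wap (4.07, SE 0.99, adjusted p = 0.0769) and Csn3 (1.58, SE 0.51, adjusted p = 0.266) did not pass, and 5 of 6 members had all 3 mutant arrays above all 3 control arrays, as had 8.15% of genes. In a fit of the compared groups alone neither Csn1s1 (adjusted p = 0.109) nor Csn2 (0.0632) passed. Csn1s2a passed without mutant replicate 2 (6.11, adjusted p = 0.00555) and Wap without mutant replicate 3 (5.49, adjusted p = 0.00201).

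**Figure D2:**
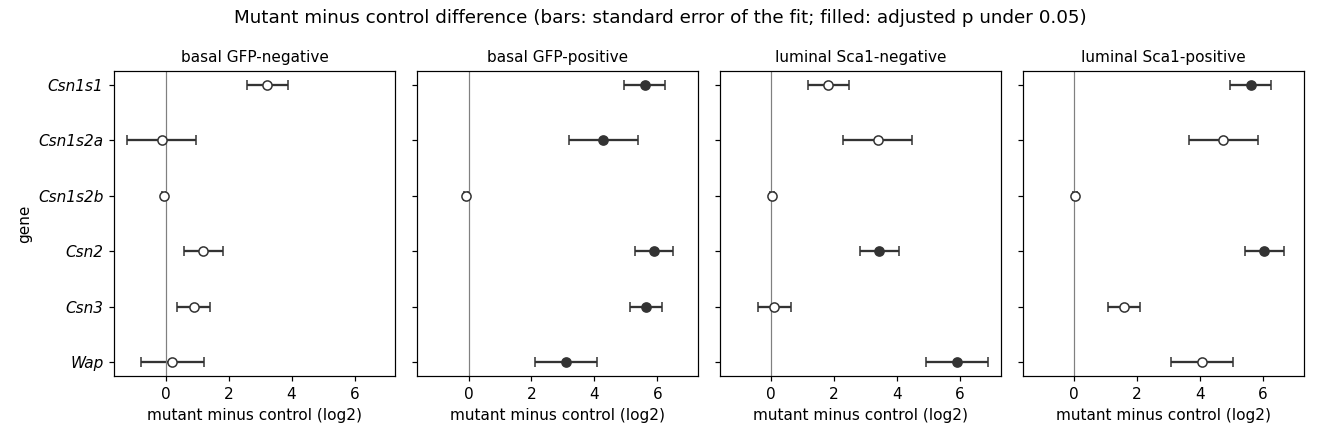
Mutant minus control difference in log2 expression value (horizontal axis) for each gene (vertical axis) in each of the 4 populations, with standard errors of the fit as bars and filled points where the adjusted p was under 0.05. Filled points number 0, 5, 2 and 2 from left to right, and Csn1s2b lies between -0.09 and 0.04 in the 4 panels.

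Whether these effects differed in size was tested directly. The effect in basal GFP-positive cells exceeded that in GFP-negative cells for Csn3, by 4.75 (SE 0.72, adjusted p = 0.002), and Csn2, by 4.70 (SE 0.87, adjusted p = 0.0108), 2 of 6 members where 0.772% of genes passed in that direction. The same difference was 2.37 for Csn1s1 (adjusted p = 0.258) and did not pass. The Csn3 difference rests on control levels that themselves differed between the GFP fractions (5.35 against 8.73). The effect in luminal Sca1-negative cells was smaller than in basal GFP-positive cells for Csn3, by -5.53 (SE 0.72, adjusted p = 0.00034), 1 of 6 members where 0.647% of genes passed. Csn1s1 gave -3.79 (SE 0.93, adjusted p = 0.0586) and Wap 2.80 (SE 1.40, adjusted p = 0.45). Without mutant basal GFP-positive replicate 2 the difference of basal effects also passed for Csn1s2a (5.96, adjusted p = 0.0352). Between the 2 luminal gates 0 of 6 effects differed past the limma test, where 0.161% of genes did (2 members had an unadjusted p under 0.05), with 3.80 for Csn1s1 (adjusted p = 0.176) and 2.62 for Csn2 (adjusted p = 0.452).

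Within control mice the sorted populations were compared with each other. Against control basal GFP-negative cells, luminal Sca1-negative cells had 3 of 6 members higher where 4.93% of genes were: Csn1s1 by 5.43 (SE 0.66), Csn2 by 3.75 (SE 0.62) and Csn3 by 2.24 (SE 0.51, adjusted p = 0.00759). Wap differed by 0.74 (SE 0.99) with overlapping arrays. Control Sca1-positive cells had 3 of 6 members lower than Sca1-negative cells where 1.61% of genes were, with Csn1s1 at -4.91 (SE 0.66), Csn2 at -3.47 (SE 0.62) and Csn3 at -2.03 (SE 0.51, adjusted p = 0.0328). The Csn3 call ended without any 1 of the 6 arrays (adjusted p of 0.071 to 0.0992). In control basal cells Csn3 was lower in GFP-positive than GFP-negative cells, by -3.39 (SE 0.51), the 1 member of 6 where 0.747% of genes fell. In a fit of these groups alone it did not pass (adjusted p = 0.438). On the 3 GFP-positive arrays Csn3 (3.99, 7.07 and 4.98), Wfdc18 (4.80, 7.69 and 4.88), Cd14 (5.17, 6.71 and 5.38) and the mean of the luminal markers (7.74, 8.63 and 7.90) were all highest in replicate 2. Cd14 is 1 of 4 luminal progenitor markers, with Kit, Elf5 and Aldh1a3, whose mean there was 4.72, 4.97 and 4.93. Elf5 was at background in that group and lowest in replicate 2. On the GFP-negative arrays Csn3, Wfdc18 (5.49, 7.92 and 9.57) and Cd14 (4.74, 6.83 and 8.17) were all highest in replicate 3. The mean of the luminal markers there was 7.98, 7.82 and 8.07, lowest in replicate 2, and the progenitor mean was 4.48, 5.08 and 5.47. The part of luminal RNA in these values was not tested.

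Within mutant mice, GFP-positive basal cells had Csn2 higher than GFP-negative ones, by 4.54 (SE 0.62), 1 of 6 members where 1.77% of genes rose. Csn1s2a (3.93, adjusted p = 0.0711) passed without GFP-positive replicate 2 (5.48, adjusted p = 0.00342), and Csn1s1 (2.09, adjusted p = 0.124) passed without GFP-negative replicate 3 (2.94, adjusted p = 0.0123). In a fit of these groups alone Csn2 did not pass (adjusted p = 0.122). Luminal Sca1-negative cells had Wap higher than basal GFP-positive cells, by 3.45 (SE 0.99, adjusted p = 0.0385), 1 of 6 members where 3.62% of genes rose. That call ended without basal replicate 2 (0.129) or 3 (0.199) and without luminal replicate 1 (0.139), 2 (0.0849) or 3 (0.0694), and Csn1s1 passed without basal replicate 1 (2.47, adjusted p = 0.0427). Between the mutant luminal gates 0 of 6 members passed in limma, where 3.66% of genes did (1 member had an unadjusted p under 0.05), with Wap at -2.74 (SE 0.99, adjusted p = 0.185) and Csn2 at -0.86 (SE 0.62, adjusted p = 0.698). Wap passed without Sca1-positive replicate 1 (-3.99, adjusted p = 0.0185).

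Control luminal Sca1-negative cells were the control population in which Csn1s1, Csn1s2a, Csn2 and Csn3 were highest. Set against them, mutant luminal Sca1-positive cells had Csn2 higher by 2.58 (SE 0.62, adjusted p = 0.033), in a pair where 2.28% of genes were called. Csn1s1 (0.70), Csn1s2a (1.32), Wap (3.15) and Csn3 (10.52 against 10.97) did not pass. Mutant basal GFP-positive cells differed from the same control cells by 0.11 or less for Csn1s1 and Csn3, with SEs of 0.66 and 0.51. Over all 28 pairs of groups, each adjusted on its own, Csn2 passed in 19, Csn1s1 in 17, Csn3 in 14, Wap in 11 and Csn1s2a in 10. The share of all genes called per pair ran from 0.0602% (the basal GFP-negative groups) to 20.1% (control basal GFP-positive against control luminal Sca1-positive cells).

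In several groups most of the 5 members that varied shared their highest array. Replicate 1 was the highest array for 4 of 5 members in each of the 3 GFP-positive mutant groups. Replicate 3 was highest for 5 of 5 in control luminal Sca1-positive cells and for 4 of 5 in mutant basal GFP-negative and control luminal Sca1-negative cells. The control basal groups were split, with 2, 1 and 2 members highest in replicates 1, 2 and 3 without GFP, and 2 and 3 members in replicates 2 and 3 with it. The share of all genes highest on the same arrays was not computed. Across the 24 arrays Csn1s1 and Csn2 correlated at r = 0.95 (Spearman 0.90), Csn1s2a and Csn2 at 0.92 (0.94), Csn2 and Wap at 0.85 (0.72), and Csn3 and Wap at 0.53 (0.63). These correlations describe 8 populations in 24 arrays and carry the differences between populations.

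Markers of luminal progenitor cells (Kit, Elf5, Aldh1a3 and Cd14) moved with some of these values. Their mean per array was 6.23 to 6.43 in mutant and 4.72 to 4.97 in control basal GFP-positive cells, with Elf5 and Cd14, 2 of 4, higher, while Kit stood at 5.20, 4.34 and 4.20 there against 8.71 to 9.66 in control luminal Sca1-negative cells. Of the 8 luminal markers 1 rose in that comparison, Cdh1 by 0.62, and 0 of 8 basal markers changed. Over all genes 4.74% rose and 7.81% fell in it. In mutant luminal Sca1-positive cells the progenitor mean was 8.33, 6.97 and 6.11, highest in replicate 1 and lowest in replicate 3 as were Csn1s1, Csn2 and Wap, beside Elf5 at 8.58, 5.96 and 4.67 and Wap at 10.96, 8.83 and 5.64. Csn1s2a was lowest in replicate 2. The mean of 5 measured markers of hormone-sensing luminal cells ran the other way there, at 8.32, 8.78 and 9.25, against 9.59, 9.07 and 9.46 in control Sca1-positive cells. In luminal Sca1-negative cells it was 5.98, 6.02 and 7.05 in mutant and 7.57, 7.08 and 8.06 in control cells. Prom1 fell by 2.32 in Sca1-positive and fell by 2.17 in Sca1-negative cells, 1 of the 5 in each. Over all genes 0.376% and 0.171% fell in these comparisons. In mutant luminal Sca1-negative cells the basal keratins Krt5 and Krt14 rose by 3.29 and 2.46, 2 of 8 basal markers where 0.557% of genes rose. In basal GFP-negative cells the mean of the 8 luminal markers was 8.57, 8.73 and 8.90 in mutant and 7.98, 7.82 and 8.07 in control cells. The progenitor mean there was 5.44, 6.13 and 6.19 against 4.48, 5.08 and 5.47. The mean of the 8 basal markers was 10.53, 11.02 and 11.01 against 11.11, 10.87 and 10.88. The part of cell composition in the members' differences was not tested.

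**Figure D3:**
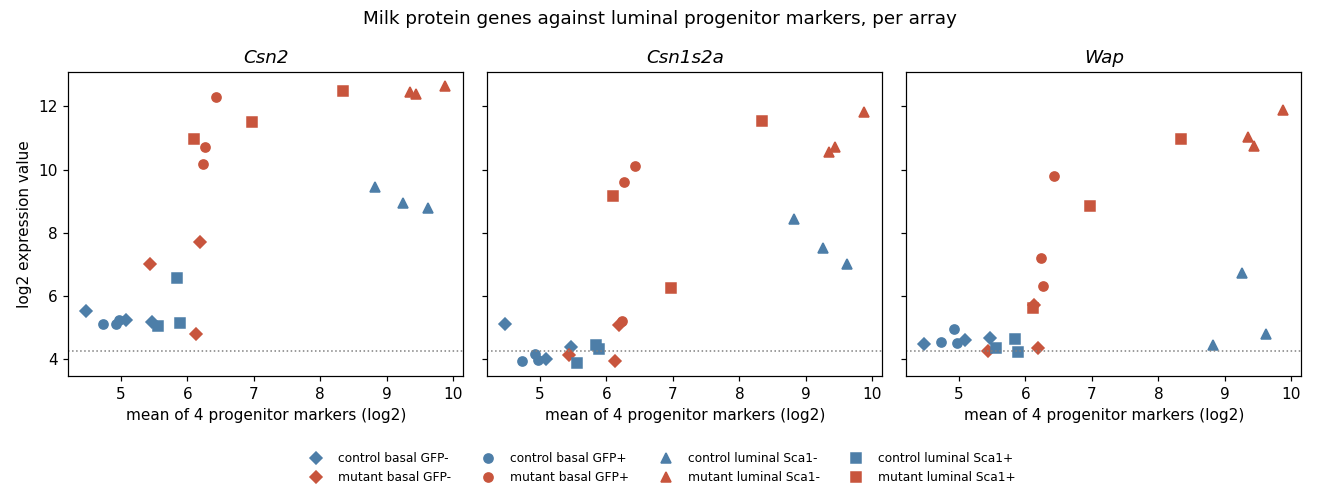
Log2 expression value of Csn2, Csn1s2a and Wap (vertical axis) against the mean log2 value of 4 luminal progenitor markers (horizontal axis), 1 point per array; blue is control, red is mutant, shapes are populations and the dotted line is background. Control luminal Sca1-negative arrays have marker means of 8.82 to 9.62 with Wap at 4.45 to 6.72, while mutant basal GFP-positive arrays have marker means of 6.23 to 6.43 with Csn2 at 10.17 to 12.28.

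Other milk proteins were read beside the members. In basal GFP-positive cells 1 of 8 rose, where 4.74% of all genes did. It was Wfdc18, a small secreted protein of the whey acidic protein family, by 6.01 (SE 0.79, adjusted p = 0.000153), with a median of 0.19 over the 8. In luminal Sca1-negative cells 1 of 8 rose, where 0.557% of genes did: Lao1, an amino acid oxidase of milk, by 2.62 (SE 0.37). In luminal Sca1-positive and basal GFP-negative cells 0 of 8 passed, where 0.777% and 0.0602% of genes did. Lactoferrin (Ltf) was higher in luminal Sca1-negative than basal GFP-negative control cells by 5.24 and did not pass in any of the 4 mutant comparisons. Of 12 measured genes with the four-disulfide core of whey acidic protein, Wfdc3 (2.78), Wfdc12 (2.35) and Slpi (1.43) rose in luminal Sca1-negative cells and Wfdc12 (4.71, SE 0.27) in Sca1-positive cells. Over all genes 0.557% and 0.401% rose in these comparisons. Wfdc12 stood at 9.90, 8.71 and 8.73 in mutant luminal Sca1-positive cells, against 3.86 to 4.63 in mutant basal GFP-positive cells, where Wap stood at 6.32 to 9.79. Slpi, a protease inhibitor, fell by 0.75 in mutant basal GFP-positive cells (adjusted p = 0.0188).

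Of 10 milk fat globule and lipid secretion genes 3 rose in basal GFP-positive cells, where 4.74% of all genes did. Mfge8, a globule membrane protein, rose by 3.39 (SE 0.38). Xdh, xanthine dehydrogenase of the same membrane, rose by 2.70 (SE 0.34), and Plin2, a lipid droplet coat protein, by 1.78 (SE 0.51, adjusted p = 0.0324). The median of the 10 was 0.07. Xdh stood at 8.03, 8.13 and 7.51 in mutant basal GFP-positive cells and 5.43, 5.37 and 4.78 in control ones. Butyrophilin (Btn1a1), which binds Xdh in the globule membrane, was higher in luminal Sca1-negative than basal cells of both genotypes. The difference was 4.23 over GFP-negative basal cells in control mice and 3.98 over GFP-positive basal cells in mutant mice. Btn1a1 passed in none of the 4 mutant comparisons. Between mutant and control cells 0 of 10 passed in either luminal gate, where 0.727% (Sca1-negative) and 0.777% (Sca1-positive) of genes did. Of 10 genes for casein phosphorylation, calcium and lactose supply 0 rose in basal GFP-positive cells and 1 fell, Casr, by 0.36. Over all genes 4.74% rose and 7.81% fell there. The calcium pump Atp2c2 rose by 0.78 in luminal Sca1-positive cells (adjusted p = 0.0338).

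Among 14 measured genes of prolactin signalling and casein gene control, 4 rose and 1 fell in basal GFP-positive cells, with a median of 0.14. Over all genes 4.74% rose and 7.81% fell there. Ehf, an epithelial ETS factor, rose by 4.70 (SE 0.30, adjusted p = 1.47e-08), Elf5 by 3.22 (SE 0.77, adjusted p = 0.0144) and Id2, a helix-loop-helix inhibitor needed for alveolar growth, by 1.30 (SE 0.33, adjusted p = 0.0203). Elf5 stood at 6.85, 6.11 and 9.12 on the mutant arrays and at 4.09, 3.98 and 4.35 on the control ones. Stat5a, the factor that acts on casein promoters downstream of prolactin, fell by 0.88 (SE 0.23, adjusted p = 0.0202), with 6.18, 6.03 and 6.20 against 7.08, 6.82 and 7.15. In luminal Sca1-negative cells Id2 rose by 1.47 (adjusted p = 0.0484), 1 of 14 where 0.557% of genes rose. In luminal Sca1-positive and basal GFP-negative cells 0 of 14 passed, where 0.777% and 0.0602% of genes did. Of 13 measured secretory calcium-binding phosphoprotein genes, relatives of the caseins, Sparcl1 rose by 0.68 and Dmp1 fell by 0.29 in basal GFP-positive cells. Dmp1 was at background in both groups of that comparison, and Sparcl1 was at background in the control group. The RNA level of a kinase or of Stat5 does not measure its activation.

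Genes around the casein cluster were read to see whether they moved with it. Of 16 neighbours within 500000 bases of the cluster that had a probe set of their own, 11 were at background in all 8 groups, among them Odam and BC037156, which lie between Csn1s2b and Csn3. In basal GFP-positive cells 0 of 16 rose and 1 fell, Prr27, by 0.43, with a median of -0.13. Prr27 had a mean of 4.42 in the control cells, near background, and was at background in the mutant cells. Over all genes 4.74% rose and 7.81% fell there. Amtn, which encodes the enamel protein amelotin and starts 710 kb from Csn1s1, rose by 4.82 (SE 0.30) in luminal Sca1-negative cells and by 2.94 (SE 0.30) in Sca1-positive cells, 1 of 16 in each. Over all genes 0.557% and 0.401% rose in these comparisons. In basal GFP-positive cells Amtn stood at 4.36, 4.47 and 3.70, a difference of 0.29 that did not pass. Odam stood at 5.14 on mutant basal GFP-positive replicate 1 and at background on the other 23 arrays. Of the 3 nearest measured genes on each side of Wap 0 rose in any of the 4 mutant comparisons, where 0.0451% to 4.74% of genes did. Among them 1, Igfbp1, fell by 0.34 in basal GFP-positive cells, where 7.81% of genes fell. Its mean was 4.45 in the control cells, near background, and at background in the mutant cells.

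**Figure D4:**
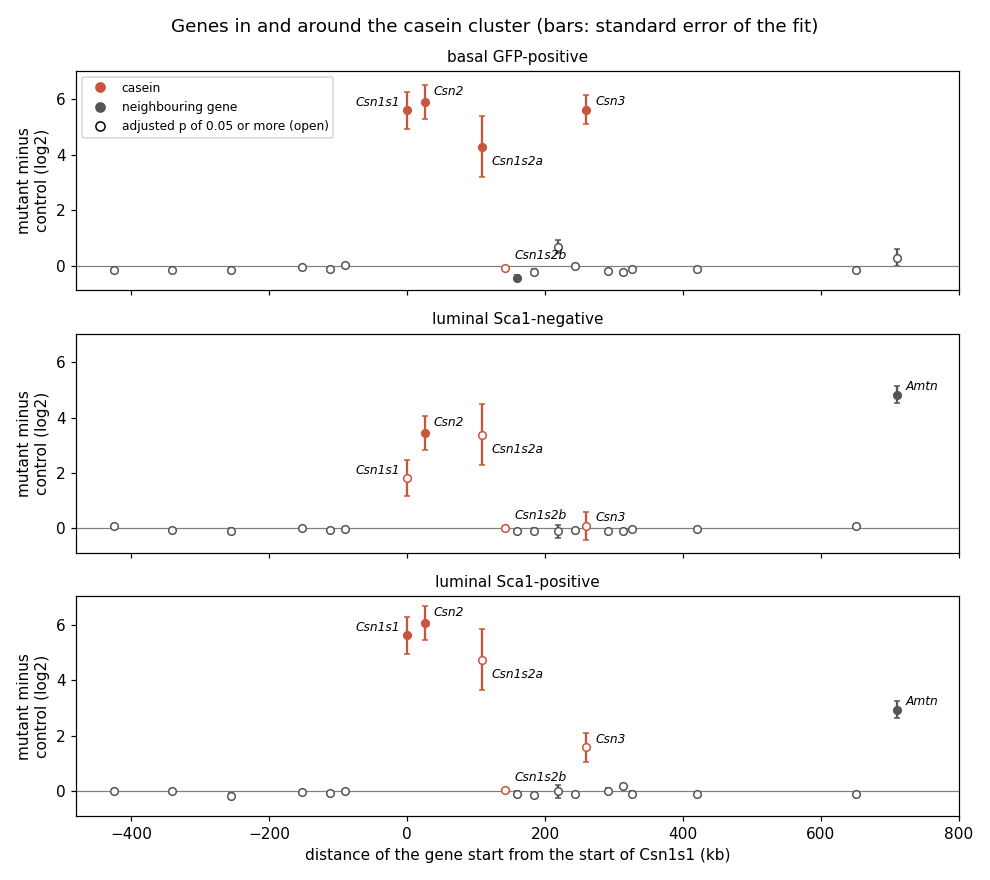
Mutant minus control difference in log2 expression value (vertical axis) against distance of the gene's start from that of Csn1s1 in kb (horizontal axis), for the caseins (red) and 16 neighbours (grey) in 3 populations; bars are standard errors and open points had an adjusted p of 0.05 or more. In the basal GFP-positive panel the 16 neighbours lie between -0.43 and 0.69, and Amtn at 710 kb rises in both luminal panels.

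Over all genes, those most like the mean of the 6 members across the 24 arrays were Sulf2, a heparan sulfate sulfatase (r = 0.90, Spearman 0.84), Plin2 (0.90, 0.86), Cck, the peptide hormone cholecystokinin (0.89, 0.89), Apod, a lipocalin (0.86, 0.88) and Prkch, a protein kinase C (0.86, 0.76). With flat Csn1s2b left out of the mean, a choice made after seeing the data, they were Cck (0.93), Apod (0.91), Sulf2 (0.90), Lurap1l (0.88) and Plin2 (0.87). Cck stood at 8.81, 7.63 and 8.79 in mutant and 3.78, 3.56 and 3.93 in control basal GFP-positive cells. By single member, Apod was most like Csn1s1 (0.96), Sulf2 most like Csn2 (0.92) and Cck most like Csn1s2a (0.86, with Elf5 also at 0.86). Csn3 was most like Wfdc18 (0.94), and flat Csn1s2b reached 0.67 at most (Ier2). Wap was most like Saa1 (0.95) and Saa2 (0.91), serum amyloid A proteins, and Saa1 stood at 9.32, 8.32 and 3.96 on the mutant luminal Sca1-positive arrays, highest and lowest on the same arrays as Wap. The genes named were taken by Pearson r alone, and each r carries the differences between the 8 populations.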

How the data were processed

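RNA of sorted mouse mammary cells was measured on 24 arrays, 3 for each of 8 groups. The authors deposited 1 log2 value for each probe set and array. Per the submitters' processing notes the software affy was used, with no version or role named. Background correction, normalization and summarization are not given in the sources used here. The log2 scale was read from the values, which ran from 2.59 to 13.54. Of 34760 probe sets, those with a single symbol (21640) were kept, and the one with the highest mean was kept where a gene had several. No array was left out. limma 3.58.1 in R 4.3.3 fitted 1 mean per group (16 residual degrees of freedom), and two-sided p-values were adjusted by Benjamini-Hochberg over all 19937 genes within each contrast, with a threshold of 0.05. The code was tested on simulated data. Errors of differences are standard errors (SE) and errors of levels are SD of 3 arrays. Replicates are pools from separate sortings, and their number limits the precision. Deviations from the group means correlated at -0.08 to 0.18 between same-numbered arrays of different groups (median 0.05, 4 of 33 pairs above 0.1) and at -0.14 to 0.12 between arrays of other numbers (median -0.02, 1 of 66 above 0.1). These values do not decide whether same-numbered arrays share a sorting. The labels do not say what the number marks, so it served as a block only in an alternative setting.

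The 6 members, the gene lists and the comparisons were chosen with earlier results of these data known. Genes named are the 6 members, up to 4 called genes with the smallest p per list and comparison, the 5 genes most like the members' mean and the 3 most like each member, the cluster's neighbours within 500000 bases and the 3 nearest measured genes each side of Wap. Btn1a1 and Kit in the mutant comparisons and the arrays of Cd14, Wfdc18 and Glycam1 were chosen after their values were seen. The symbols Lalba, Spp1, Prlr, Expi, Fdcsp and Muc10 of the lists had no single-symbol probe set under that name. Other names of these genes were not searched. Alternatives were a fit of the compared groups alone, quantile normalization, dim genes left out, the mean of a gene's probe sets, a trended and robust prior, array weights, all probe sets, the replicate number as a block, no control basal GFP-positive arrays and leaving out each array.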

Additional observations from a re-analysis of the deposited data

Results flagged for a closer look

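The mutant minus control difference of Csn2 was not the same in the basal fractions, with 5.90 in GFP-positive and 1.19 in GFP-negative cells. The tested difference of effects was 4.70 (limma, adjusted p = 0.0108). All 3 GFP-positive mutant arrays lay above their controls, and the GFP-negative arrays overlapped theirs. For Csn3 the same difference was 4.75 (5.63 against 0.88, adjusted p = 0.002). In a fit of the compared groups alone neither passed (adjusted p = 0.138 for Csn2 and 0.12 for Csn3). The effect on Csn3 also differed between luminal Sca1-negative cells (0.10) and basal GFP-positive cells (5.63), by -5.53 (adjusted p = 0.00034). Csn3 stood at 10.97 in control luminal Sca1-negative cells and at 5.35 in control basal GFP-positive cells.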

How the results depend on the processing

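In a fit of the compared groups alone the number of members called went from 5 to 3 in basal GFP-positive cells, from 2 to 1 in luminal Sca1-negative cells, from 2 to 0 in luminal Sca1-positive cells, from 1 to 0 between mutant basal fractions, between control basal fractions and between mutant luminal Sca1-negative and basal GFP-positive cells, and from 2 to 0 for the difference of basal effects. It went from 1 to 2 for the difference of effects between luminal Sca1-negative and basal GFP-positive cells, as it did with dim genes left out and with a trended and robust prior. With the compared groups alone it also went from 3 to 4 in control luminal Sca1-negative against basal GFP-negative cells and between control luminal gates, where Csn1s2a passed (adjusted p = 0.0187 and 0.0262). With dim genes left out it was 4 in luminal Sca1-positive cells, 2 between mutant basal fractions and 2 between mutant luminal Sca1-negative and basal GFP-positive cells. Array weights also gave 4 in luminal Sca1-positive cells, all probe sets gave 0 between mutant luminal Sca1-negative and basal GFP-positive cells, and leaving out the control basal GFP-positive arrays gave 0 there and 2 between mutant basal fractions. The cause was not tested. Leaving out 1 array gave 3 to 4 members in basal GFP-positive cells, 0 to 1 in basal GFP-negative cells, 1 to 2 between mutant basal fractions, 0 to 2 between mutant luminal Sca1-negative and basal GFP-positive cells and 0 to 1 between mutant luminal gates.

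With the replicate number as a block, 2 members passed between mutant basal fractions in place of 1, Csn2 and Csn1s2a (adjusted p = 0.0397). Csn1s2a also passed under that block in luminal Sca1-positive cells (0.0259), in mutant basal GFP-positive against control basal GFP-negative cells (0.0401) and in control luminal Sca1-negative against basal GFP-negative cells (0.05 after rounding). No called difference of a member changed sign in any setting run, while uncalled ones did in 20 cases, 16 of them without 1 array. For Csn1s2b, at background throughout, the values without 1 array were -0.051 to 0.017 between mutant basal fractions, -0.020 to 0.089 between control basal fractions, -0.048 to 0.028 between control luminal Sca1-negative and basal GFP-negative cells, -0.052 to 0.030 between mutant luminal gates, -0.10 to 0.0080 for the difference of basal effects and -0.017 to 0.064 for that of luminal effects. Quantile normalization gave it 0.0063 between mutant basal fractions, -0.032 between control luminal Sca1-negative and basal cells (array weights -0.0017) and 0.012 between mutant luminal gates. Without 1 array the genotype difference in basal GFP-negative cells was -0.48 to 0.17 for Csn1s2a and -0.26 to 0.47 for Wap, Wap between control basal fractions was -0.050 to 0.17, and the difference of luminal Sca1-negative against basal GFP-positive effects was -2.45 to 0.0022 for Csn1s2a. Of 612 results without 1 array 563 kept their direction and their side of the threshold, as did 679 of 718 under the other settings. Most of these results were uncalled in the main fit, so the totals say little about how stable the calls were. A called result lost its call in 24 of the 612 and in 15 of the 718. An exact permutation test of 3 arrays against 3 cannot go below 0.1, so no call could pass in it. In basal GFP-positive cells 2504 genes were called, 234 to 2699 under other settings and 1034 to 3979 without 1 array. In basal GFP-negative cells 12 were called (0 to 12, and 9 to 32 without 1 array), in luminal Sca1-negative cells 145 (34 to 203) and in luminal Sca1-positive cells 155 (8 to 221). Under settings other than leaving out an array, 641 genes (296 to 850) were called between mutant basal GFP-positive and control basal GFP-negative cells, 500 (191 to 788) between mutant basal fractions, 250 (0 to 254, and 104 to 1126 without 1 array) between control basal fractions, 1960 (1045 to 2272) between control luminal Sca1-negative and basal cells, 735 (311 to 831) and 729 (319 to 1052) between control and between mutant luminal gates, and 214 (53 to 214, and 147 to 588 without 1 array), 32 (5 to 52) and 205 (145 to 213, and 141 to 402 without 1 array) for the differences of basal, of luminal, and of luminal Sca1-negative against basal effects. Of the 5 genes most like the mean of the 6 members, 2 were also among the first 5 by Spearman correlation. Csn3 passed in luminal Sca1-positive cells with array weights (adjusted p = 0.0342) and when control basal GFP-positive arrays were left out (0.0146). With the median over genes of mean values, 4.66, as the background level, more groups count as dim.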

Other observations

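Glycam1, a mucin-like glycoprotein of milk whey, stood at 10.72 on replicate 2 of mutant basal GFP-negative cells and between 3.72 and 5.28 on the other 23 arrays. Csn2 on that array stood at 4.81, the lowest of its 24 values, and Wap at 5.73, above the other two arrays of the group (4.28 and 4.38).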
